A study of Mus musculus with 7 samples.

Results

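*Gp2*, *Spib*, *Tnfaip2*, *Ccl9*, *Ccl6*, *Sox8* and *Marcksl1* are genes associated with microfold cells (M cells), and they were followed here in single thymic epithelial cells (TECs) of the mouse. The 7 genes were chosen by name among the 20839 genes listed in any of the 7 libraries. All 7 were listed in 6 libraries, and 6 of them in the library of week 6 after anti-RANKL, where *Ccl6* had no UMI (unique molecular identifier, a tag that counts a single captured RNA molecule). Their detection, level and joint detection were measured in 8220 of the 8453 cells, those without a UMI of *Ptprc*, which encodes the leukocyte antigen CD45.

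M cells are epithelial cells that lie over lymphoid follicles of the gut and carry particles and microbes from the lumen to the immune cells beneath. RANKL, acting through its receptor RANK on the epithelial cell and through NF-kB, is the signal that induces them, and the Ets factor Spi-B, encoded by *Spib*, is required for their maturation. GP2 is a receptor on their apical surface that binds bacterial pili, Sox8 is a transcription factor that acts on *Gp2*, *Tnfaip2* encodes a protein linked to membrane tubules, *Ccl9* and *Ccl6* encode CC chemokines, and *Marcksl1* encodes an actin-binding protein of the MARCKS family. RANKL is also the main inducer of medullary TECs that express *Aire*, the regulator of peripheral self-antigen transcription, so the same pathway acts on both kinds of cell.

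The libraries are droplet scRNA-seq of sorted EpCAM+ CD45- cells, each from 3 pooled thymi. Both isotype control libraries and the 4 anti-RANKL libraries come from C57BL/6 mice that received 3 injections of 100 µg of antibody within a week. The controls were collected at week 2 (4 weeks of age) and week 10 (12 weeks of age), and the treated mice at week 2 (4 weeks of age), week 4 (6 weeks of age), week 6 (8 weeks of age) and week 10 (12 weeks of age). The *Aire* lineage tracing library comes from 6-week-old mice on C57BL/6 that carried *Aire*-CreERT2 and the reporter R26-CAG-Stopfl-zsGreen and were given 2 mg of tamoxifen every other day over 10 days, in which the inducible Cre is driven from *Aire* and labels cells that express it, and their offspring, with ZsGreen. Weeks 4 and 6 have no control of the same age, each pool is 1 library, and age moves with the week of collection.

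The libraries held 730 to 1475 cells and 3857876 to 22197691 UMIs, with a median per cell from 16809 in the week 2 control to 4300 at week 6 of anti-RANKL. Between 11 and 69 cells of a library had a *Ptprc* UMI and were set apart. The 5 TEC markers *Epcam*, *Krt8*, *Krt18*, *Krt5* and *Foxn1* together reached 3903 to 6112 UMIs per 1000000 UMIs (CPM) in the cells without *Ptprc*. Across libraries, 50 cell barcodes occurred in more than 1 library. The same cells also held the list of 7 myeloid markers at a summed 62.5 to 587 CPM, lowest at week 4 of anti-RANKL, and the 7 tuft cell markers at 185 to 498 CPM.

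Cells without *Ptprc* were divided by their deposited value, ln(1 + UMIs per 10000 UMIs of that cell). Cells with *Ccl21a*, the chemokine of another medullary subset, above 4 formed the Ccl21a-high class (3451 cells). The others formed the Aire-zero class (2092 cells without an *Aire* UMI), the Aire-low class (949 cells up to 1.5) and the Aire-high class (1728 cells above 1.5). The Aire-high class took 40.2% and 43.6% of the cells of the week 2 and week 10 controls, and 5.15%, 1.38%, 12.8% and 38.2% at weeks 2, 4, 6 and 10 after anti-RANKL. At week 4 it held 20 cells and the Aire-low class 17, so values of these classes at that time rest on few cells. Another 384 Ccl21a-high cells had an *Aire* UMI, 41 of them above 1.5.

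The genes lie on 5 chromosomes of the mouse genome (GRCm38, GENCODE vM21), all as protein-coding genes. *Gp2* (chromosome 7, 119442537 to 119459285) and *Spib* (chromosome 7, 44525993 to 44532071) are on the minus strand of the same chromosome, and *Tnfaip2* is on chromosome 12 (111442469 to 111455018, plus strand). *Sox8* lies on chromosome 17 (25565892 to 25570686, minus strand) and *Marcksl1* on chromosome 4 (129513581 to 129515985, plus strand). *Ccl9* (83572919 to 83578636) and *Ccl6* (83587882 to 83593087) are neighbours on the minus strand of chromosome 11, with 9245 bases between them. Their annotated transcripts share 1 word of 25 bases, out of 3021 words in *Ccl9* and 1768 in *Ccl6*, and *Spib* and *Ccl9* share 10 such words, the most of any pair of members.

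All 7 genes matched an entry of the RefSeq promoter table (GRCm38.p6), and 4 of these stretches, the 250 bases before the start of transcription, are shown here because *Ccl9*, *Ccl6* and *Gp2* are the members that marked out a small group of cells, described later, and because *Spib* and *Ccl9* hold a match to the NF-kB consensus. Capitals mark that match.
Spib (chr7:44532072-44532321, minus strand): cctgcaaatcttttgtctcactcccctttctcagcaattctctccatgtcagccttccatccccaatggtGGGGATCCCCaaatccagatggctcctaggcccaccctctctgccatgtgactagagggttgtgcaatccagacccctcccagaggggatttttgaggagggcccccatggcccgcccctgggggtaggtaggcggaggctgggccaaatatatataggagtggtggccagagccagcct
Ccl9 (chr11:83578637-83578886, minus strand): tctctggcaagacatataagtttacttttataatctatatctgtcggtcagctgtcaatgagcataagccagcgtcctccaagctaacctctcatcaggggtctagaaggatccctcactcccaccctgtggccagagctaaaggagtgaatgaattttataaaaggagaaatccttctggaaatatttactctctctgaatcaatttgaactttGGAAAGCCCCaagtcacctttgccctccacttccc
Ccl6 (chr11:83593088-83593337, minus strand): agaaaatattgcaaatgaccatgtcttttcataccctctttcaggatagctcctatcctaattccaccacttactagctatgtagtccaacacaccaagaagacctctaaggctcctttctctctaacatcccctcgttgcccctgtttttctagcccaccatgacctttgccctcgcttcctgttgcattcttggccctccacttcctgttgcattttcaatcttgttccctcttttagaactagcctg
Gp2 (chr7:119459273-119459522, minus strand): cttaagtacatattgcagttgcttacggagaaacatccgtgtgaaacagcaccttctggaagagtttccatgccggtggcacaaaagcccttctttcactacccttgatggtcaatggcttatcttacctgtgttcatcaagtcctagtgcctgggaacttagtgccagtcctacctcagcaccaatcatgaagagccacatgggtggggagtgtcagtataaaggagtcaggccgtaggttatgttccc
The 10-base NF-kB consensus was searched on both strands and occurred in 2 of the 7 stretches, *Spib* 180 to 171 bases and *Ccl9* 35 to 26 bases before the start, and in 3.90% of 32851 such promoters. The match of *Spib* is its own reverse complement and reads the same on either strand, while that of *Ccl9* lies on the strand opposite to the gene. The Ets site GAGGAAGT occurred in none of the 7, and in 2.44% of all promoters. *Ccl9* and *Ccl6* share a run of 13 bases, GCCCTCCACTTCC, which starts 14 bases before the start of *Ccl9* and 55 bases before that of *Ccl6*. A match is a string of letters and no measurement of binding.

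*Gp2*, *Ccl9* and *Ccl6* were lower, and *Spib* and *Marcksl1* higher, in Aire-high than in Aire-zero cells. UMIs were summed per library and class, and log2(CPM + 10) was compared with limma, with the library as a block and adjusted p-values over 11121 genes. Of the 6 members that passed the filter on low genes, 2 were called higher and 3 lower, where 17.5% of all genes tested were called higher and 39.0% lower. The median difference was -0.58 on the log2 scale over these members and -0.17 over all genes. *Sox8* fell below the filter and was not tested here. These shares of all genes are large, so the members' counts alone do not set them apart.

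*Gp2*, the apical receptor, stood at 192 CPM in the Aire-zero class in the week 2 control, 177 in the week 10 control and 49.5 in the lineage tracing library, and at 114, 102, 2.40 and 133 at weeks 2, 4, 6 and 10 of anti-RANKL. In the Aire-high class the same libraries gave 17.4, 5.16, 10.0, 5.08, 5.44, 1.38 and 5.26. In the Aire-zero class, 296 of the 309 *Gp2* UMIs of the week 10 control (95.8%) and 189 of the 225 at week 4 of anti-RANKL (84.0%) came from 1 cell each, so the size of the difference in these libraries rests on them. The Aire-high value was the lower one in 7 of 7 libraries, and the week 6 library was the lowest in the Aire-zero and Aire-high classes. At week 6 these are 2 UMIs in Aire-zero and 1 in Aire-high cells, so the direction there is not resolved. At week 4 the Aire-high value is 1 UMI in 20 cells. The difference was -2.47 ± 0.44 (SE) on the log2(level + 10) scale, 5.56-fold lower (limma, adjusted p = 4.77e-05). Aire-low cells were lower than Aire-zero cells as well, by -2.05 ± 0.44 (adjusted p = 6.90e-04), in 6 of 7 libraries. Over the classes, the mean level was 110 ± 67.2 (SD, n = 7 libraries) in Aire-zero, 17.9 ± 22.2 in Aire-low, 7.10 ± 5.18 in Aire-high and 20.1 ± 36.4 in Ccl21a-high cells, and Aire-low, Aire-high and Ccl21a-high cells did not differ beyond their spread. The Ccl21a-high mean rests on the week 10 anti-RANKL library at 102, against 1.06 to 12.7 in the other 6, and 63.7% of its UMIs there came from 1 cell.

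The share of cells with a *Gp2* UMI did not follow the level. It was 5.93% of Aire-zero, 7.59% of Aire-low, 5.67% of Aire-high and 3.36% of Ccl21a-high cells over all libraries, while the median depth of a cell, by library, was 3363 to 10528 UMIs in Aire-zero and 8176 to 21905 UMIs in Aire-high cells. With every cell thinned to 2000 UMIs, the median library detected *Gp2* in 4.81% of Aire-zero, 2.57% of Aire-low, 1.56% of Aire-high and 0.877% of Ccl21a-high cells. Of the 410 *Gp2*-positive cells, 261 (63.7%) held a single UMI and 51 held 10 or more. In each library the 5 cells with the most *Gp2* gave 47.6% to 87.5% of its UMIs, so the level follows a few cells.

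*Ccl6* and *Ccl9*, the neighbouring chemokine genes, also had their highest mean level over libraries in Aire-zero cells. *Ccl6* reached 194 CPM there in the week 2 control, 62.9 in the week 10 control, 58.3 in the lineage tracing library, and 43.0, 16.3, 0 and 65.5 at weeks 2, 4, 6 and 10 of anti-RANKL. Its Aire-high levels were 7.02, 9.69, 27.4, 3.39, 0, 0 and 3.01 in that order, lower in each of the 6 libraries that held a *Ccl6* UMI. In the Aire-zero class of the week 10 control, 103 of the 110 *Ccl6* UMIs (93.6%) came from 1 cell, so the direction in that library rests on it. The difference was -1.75 ± 0.37 (limma, adjusted p = 3.48e-04), and Aire-low cells were lower than Aire-zero cells by -1.40 ± 0.37 (adjusted p = 0.00429). Without cells that held a UMI of a wider set of immune genes, the Aire-low differences of *Gp2* (-1.04) and *Ccl6* (-0.98) no longer passed. In Ccl21a-high cells *Ccl6* stayed between 0 and 1.33 CPM. *Ccl9* was 317 in the Aire-zero class of the week 2 control and 64.0 in that of week 10, which are both controls, so its spread between controls is large. In the lineage tracing library and at week 2 of anti-RANKL *Ccl9* was higher in Aire-low cells (172 and 59.6) than in Aire-zero cells (90.6 and 57.2), and the 2 classes were not called different. Its Aire-high level was lower in 6 of 7 libraries, the exception being week 6, by -1.28 ± 0.36 (adjusted p = 0.00445). That call was lost when cells with a UMI of any of a set of T, B, myeloid and dendritic cell genes were removed (-1.09), when the Aire classes kept the Ccl21a-high cells (-0.54), with thinned UMIs (-0.67) and on the mean of the deposited values (-0.05 in natural log units).

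*Spib* and *Marcksl1* had the opposite order. *Spib* was at 117 to 241 CPM in Aire-high cells and at 56.5 to 153 in Aire-zero cells, and was higher in Aire-high cells in 6 of 7 libraries, by 0.66 ± 0.20 (limma, adjusted p = 0.00666), a call lost without the 5% of cells with the most UMIs (0.53). The exception was week 10 of anti-RANKL, with 142 against 153. At 2000 UMIs per cell, the median library detected *Spib* in 26.5% of Aire-high, 22.5% of Aire-low, 12.7% of Aire-zero and 12.0% of Ccl21a-high cells. *Marcksl1* had a UMI in 92.5% of all cells and was higher in Aire-high than in Aire-zero cells in 7 of 7 libraries, by 0.63 ± 0.11 (adjusted p = 6.38e-05), and in Aire-low cells by 0.78 ± 0.11 (adjusted p = 1.38e-05). A gene detected in 80.5% to 98.8% of Ccl21a-high cells marks no small subset, and *Marcksl1* was detected broadly in all 4 classes.

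*Tnfaip2* did not pass between Aire-high and Aire-zero cells (0.11 ± 0.24, limma, adjusted p = 0.726), with 3 libraries higher and 4 lower. Its Aire-zero level ranged from 12.2 at week 4 of anti-RANKL to 94.8 in the lineage tracing library, wider than the difference between the classes. *Sox8* was at 6.16 ± 4.56, 5.05 ± 3.57, 4.82 ± 3.39 and 2.71 ± 1.43 CPM (SD, n = 7) in Aire-zero, Aire-low, Aire-high and Ccl21a-high cells, with 428 UMIs in all, and these levels did not differ beyond their spread.

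**Figure D1:**
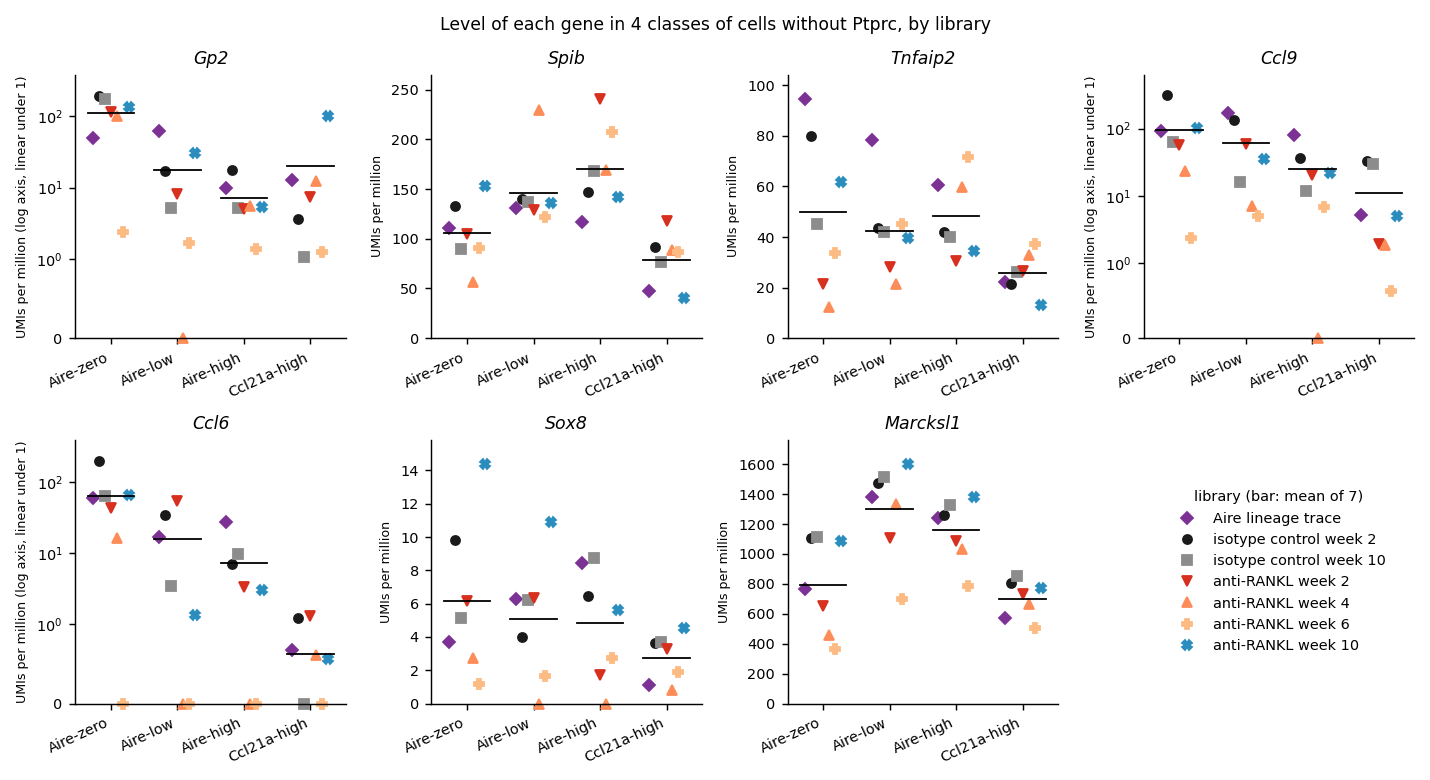
Level of each gene in CPM of the summed class (vertical axis, a log axis that is linear under 1 for Gp2, Ccl9 and Ccl6, linear for the others), by cell class and library (symbols), with the mean of 7 libraries as a bar. The mean of Gp2, Ccl9 and Ccl6 is highest in Aire-zero cells, though not in each single library, and the week 6 anti-RANKL symbol lies lowest for Gp2 in Aire-zero cells (2.40).

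Between Aire-low and Aire-zero cells 1 member was called higher and 2 lower of 6, against 13.4% and 27.3% of all genes. Between Aire-high and Aire-low cells 0 members were called higher and 0 lower by limma, against 6.06% and 10.3% of all genes, and 0 of the 6 reached an unadjusted p under 0.05 (*Ccl9* was nearest, -0.75 ± 0.36, adjusted p = 0.166). Against Ccl21a-high cells, 3 members were called higher in Aire-high cells and 0 lower, where 22.9% and 32.0% of all genes were. *Spib* was higher by 1.06 ± 0.20 (adjusted p = 8.39e-05), *Marcksl1* by 0.72 ± 0.11 (adjusted p = 1.18e-05) and *Tnfaip2* by 0.70 ± 0.24 (adjusted p = 0.0173), each in 7 of 7 libraries. The call of *Tnfaip2* was lost without cells of the wider set of immune genes (0.48), at an Aire cutoff of 2 (0.51) and with classes of at least 30 cells (0.57). *Gp2* (-0.33 ± 0.44), *Ccl9* (0.66 ± 0.36) and *Ccl6* (0.55 ± 0.37) did not pass there.

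The other genes of the M cell program were taken from a list of 16, of which 15 passed the filter. Between Aire-high and Aire-zero cells 7 of these were called higher and 3 lower, beside the 17.5% and 39.0% of all genes. *Fabp5* (0.68 ± 0.17) and *Prnp* (0.90 ± 0.10) were among the higher and *Scg5* (-0.54 ± 0.20) among the lower. The receptor of RANKL, *Tnfrsf11a*, was higher by 1.12 ± 0.18 (limma, adjusted p = 1.05e-05), its decoy receptor *Tnfrsf11b* by 1.83 ± 0.21 (adjusted p = 1.68e-07), and the NF-kB subunits *Relb* and *Nfkb2* by 1.41 ± 0.13 (adjusted p = 5.82e-09) and 1.30 ± 0.13 (adjusted p = 1.20e-08). *Ctsh*, a lysosomal protease, was higher by 1.64 ± 0.19 (adjusted p = 1.84e-07). *Pglyrp1*, a secreted peptidoglycan-binding protein, was lower by -1.04 ± 0.36 (adjusted p = 0.0174) and *Clu*, which encodes clusterin, by -0.89 ± 0.19 (adjusted p = 3.93e-04). *Ccl20*, the chemokine that M cell-bearing epithelium uses to attract CCR6+ cells, did not pass (-0.03 ± 0.58). Against Ccl21a-high cells, 10 of the 15 were called higher in Aire-high cells and 5 lower, where 22.9% and 32.0% of all genes were. *Ccl20* was among the higher, by 2.57 ± 0.58 (limma, adjusted p = 6.27e-04). *Anxa5*, *Serpinb1a*, *Scg5*, *Atoh8* and *Clu* were the lower ones. The 7 myeloid markers summed to 402 to 879 CPM in Aire-high, 80.6 to 954 in Aire-zero and 22.7 to 279 in Ccl21a-high cells, and the 7 tuft markers to 76.0 to 158, 619 to 1382 and 73.7 to 147. The part of either in these differences was not tested.

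After anti-RANKL, *Ccl9*, *Ccl6* and *Sox8* lay at least 2-fold below both isotype controls at weeks 4 and 6, and *Gp2* and *Marcksl1* at week 6. No member did so at weeks 2 or 10, and none lay 2-fold above both controls at any time. Each time point is 1 library, so there is no test, and levels over all cells without *Ptprc* carry exact Poisson 95% intervals that cover counting error alone. A lower level over all cells can mean fewer cells with the gene or fewer UMIs in each. In the same cells the 7 myeloid markers summed to 493 and 510 CPM in the week 2 and week 10 controls and to 430, 62.5, 138 and 587 at weeks 2, 4, 6 and 10 of anti-RANKL, with *Itgax* at 0 at weeks 2, 4 and 6, and their part in these levels was not tested.

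*Gp2* was at 38.9 and 27.8 CPM in the week 2 and week 10 controls. After anti-RANKL it was at 37.1 (34.1 to 40.4) at week 2, 38.6 (34.3 to 43.3) at week 4, 1.61 (0.590 to 3.50) at week 6 and 46.4 (42.4 to 50.6) at week 10. Week 6 lay 17.3-fold below the lower control, with 6 UMIs in 6 of 719 cells. The level of week 4 rests on 1 cell with 189 of 287 UMIs, and without the cell with the most *Gp2* in each library weeks 2, 4, 6 and 10 gave 28.0, 13.2, 1.34 and 36.0 against 34.0 and 4.88 in the controls. Week 6 was then still more than 2-fold below both controls, by much less than before, in a comparison chosen after seeing the data. Without the 5% of cells with the most UMIs, *Gp2* lay 2-fold below both controls at week 4 as well.

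*Ccl6* was at 38.3 and 14.1 CPM in the week 2 and week 10 controls. It was at 17.1 (15.0 to 19.3) at week 2, 5.24 (3.73 to 7.17) at week 4 and 12.4 (10.5 to 14.7) at week 10. At week 6 it had 0 UMIs in 719 cells, a limit of 0.417% on cells with a UMI in this shallow library and not on cells that express the gene, and taking 3 UMIs as the limit it was at least 17.5-fold lower than the lower control. Of the 182 UMIs of that control, 103 came from 1 cell, and without it the control was at 6.12 CPM. Without the cell richest in *Ccl6* in each library, a setting chosen after seeing the data, the controls were at 34.0 and 6.12. Weeks 2, 4 and 10 were then at 8.00, 2.29 and 9.84, with week 4 still more than 2-fold below both. Without the cells that held *Gp2*, *Ccl9* and *Ccl6* the controls were at 25.9 and 5.96 and week 4 at 5.24, and week 4 no longer lay 2-fold below both. *Ccl9* was at 99.3 and 22.5 in the controls and at 23.2, 8.34, 2.95 and 34.7 at weeks 2, 4, 6 and 10, 2.70-fold and 7.64-fold below the lower control at weeks 4 and 6. At week 4, 46 of its 62 UMIs came from 1 cell, and without the richest cell of each library it was at 2.15 there against 92.5 and 19.8. Against the control of its own age, week 2 was lower, with 23.2 against 99.3 for *Ccl9* and 17.1 against 38.3 for *Ccl6*. The controls differ from each other more than the week 2 and week 10 treated libraries differ from the week 10 control. *Sox8* was at 5.93 and 6.96 in the controls and at 4.17, 1.34, 1.88 and 7.94 in the treated libraries, with 10 UMIs at week 4 and 7 at week 6.

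*Spib*, the factor required for M cell maturation, stayed within 2-fold of both controls throughout. It was at 137 in both controls and at 125, 83.8, 116 and 127 at weeks 2, 4, 6 and 10 of anti-RANKL. Within Aire-high cells it was at 147 and 168 in the controls and at 241, 169, 207 and 142 in the treated libraries, where weeks 2 and 6 lay above both controls, and week 4 rests on 31 UMIs in 20 cells (115 to 239) and spans both. *Tnfaip2* was at 45.1 and 39.1 in the controls and at 25.6, 27.3, 44.5 and 36.5 in the treated libraries. *Marcksl1* was at 1245 and 1274 in the controls and at 766, 626, 559 and 1279 in the treated ones, 2.23-fold below the lower control at week 6. It was lower at week 6 within each class too, with 367 in Aire-zero cells against 1107 and 1116 in the controls, and 786 in Aire-high cells against 1261 and 1330.

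The counts of members at least 2-fold below or above both controls stand against many genes. At week 2, 0 of 7 lay below and 0 above, against 12.1% and 4.29% of 11681 genes. At week 4, 3 lay below and 0 above, against 18.4% and 6.16%, and at week 6, 5 below and 0 above, against 14.4% and 4.51%. At week 10, 0 lay below and 0 above, against 0.505% and 0.223%. The median log2 ratio to the control mean was -0.65 over the members and -0.04 over all genes at week 4, and -1.16 and -0.11 at week 6. Of the 15 other M cell genes that could be compared, 4, 9, 5 and 0 lay at least 2-fold below both controls at weeks 2, 4, 6 and 10. None lay at least 2-fold above both. *Ccl20* was at 250 and 103 in the controls and at 49.2, 1.34, 41.0 and 135, and *Tnfrsf11b* at 122 and 104 and at 15.8, 6.18, 35.6 and 81.5. These 2 genes were lowest at week 4.

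**Figure D2:**
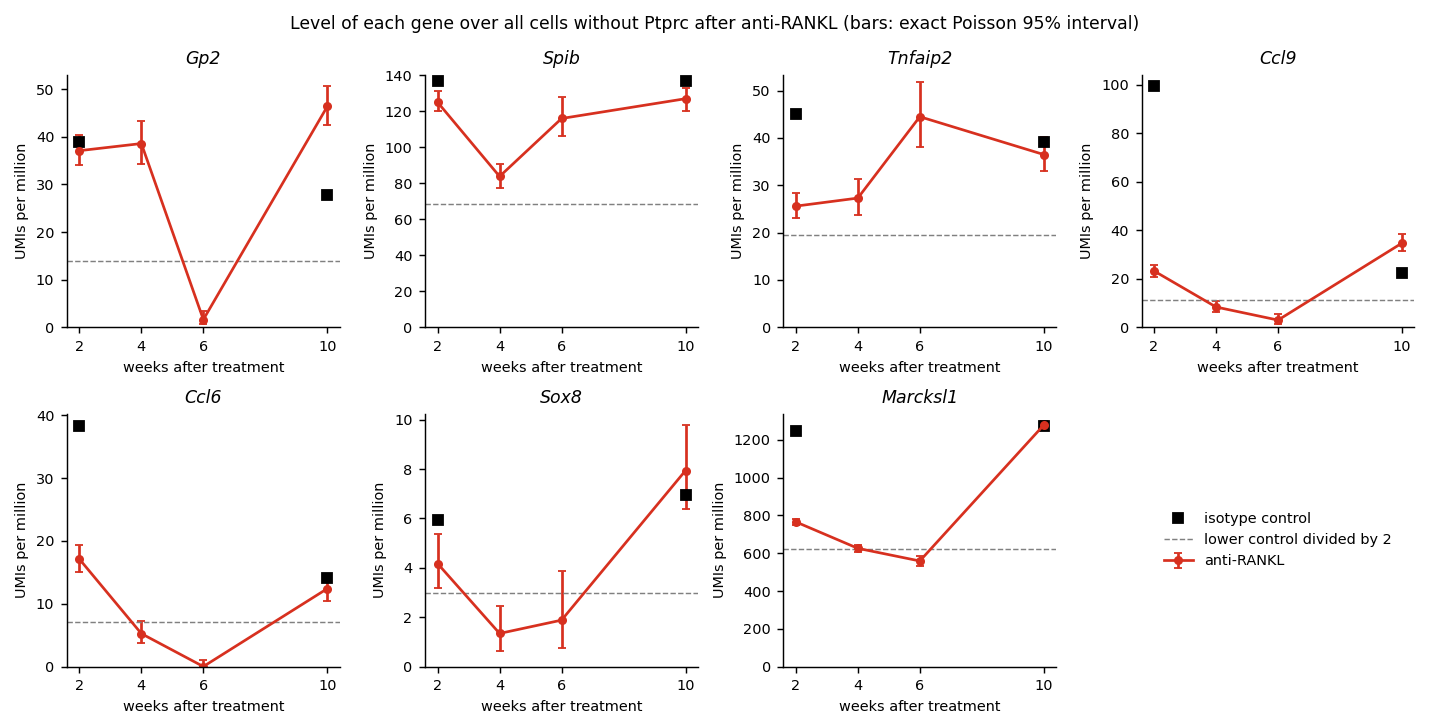
Level of each gene in CPM over all cells without Ptprc (vertical axis) against weeks after treatment (horizontal axis), with anti-RANKL libraries as points with exact Poisson 95% intervals, isotype controls as squares, and a dashed line at the lower control divided by 2. Ccl9, Ccl6 and Sox8 lie below the line at weeks 4 and 6 and Gp2 and Marcksl1 at week 6, and all 7 lie above it at week 10.

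Whether the members occur in the same cells was asked by setting *Gp2*-positive against *Gp2*-negative cells of like depth, in the 6 libraries with at least 10 *Gp2*-positive cells (404 cells). *Spib* was detected more often with *Gp2* in 6 of 6 libraries, *Ccl9*, *Ccl6* and *Sox8* in 5, *Tnfaip2* in 4 and *Marcksl1* in 3. Higher in each library was thus 1 of the 6 other members, where 4.30% of 14531 genes were, and 0 were lower in each, where 3.11% were. The median difference was 5.15 percentage points over the 6 members and 0.289 over all genes. With 6 libraries the exact two-sided sign-flip permutation test cannot go below p = 0.0312, and after adjustment over all genes the smallest value was 0.422, so no gene could pass, while 1077 genes reached an unadjusted p under 0.05.

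*Spib* was detected in 60.5% ± 9.85 (SD, n = 6 libraries) of *Gp2*-positive and 49.9% ± 12.0 of the other cells, a difference of 10.6 ± 4.27 percentage points (exact permutation p = 0.0312). Without cells of at least 2 tuft markers, a setting chosen after seeing the data, the shares were 53.1% and 46.9%, higher in 6 of 6 libraries, and without cells of the wider set of immune genes the difference was 17.3 points, higher in 5 of 6. The share beside *Gp2* ran from 46.7% (against 35.8%) at week 4 to 71.2% (against 59.6%) at week 2 of anti-RANKL, and the difference was smallest in the week 2 control, 68.8% against 64.7%. *Ccl9* was detected in 15.6% ± 10.2 against 8.01% ± 6.70 (exact permutation p = 0.0625). *Sox8* was detected in 10.1% ± 6.41 against 4.19% (exact permutation p = 0.0625) and *Ccl6* in 6.74% ± 5.61 against 2.32% ± 2.14 (exact permutation p = 0.0938). For *Ccl9* and *Ccl6* the exception was week 4 of anti-RANKL, where 0 of 45 *Gp2*-positive cells held either. *Tnfaip2* gave 27.5% ± 7.48 against 23.7% ± 6.76 (exact permutation p = 0.156) and *Marcksl1* 95.7% ± 2.58 against 95.6% ± 3.49 (exact permutation p = 0.875).

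**Figure D3:**
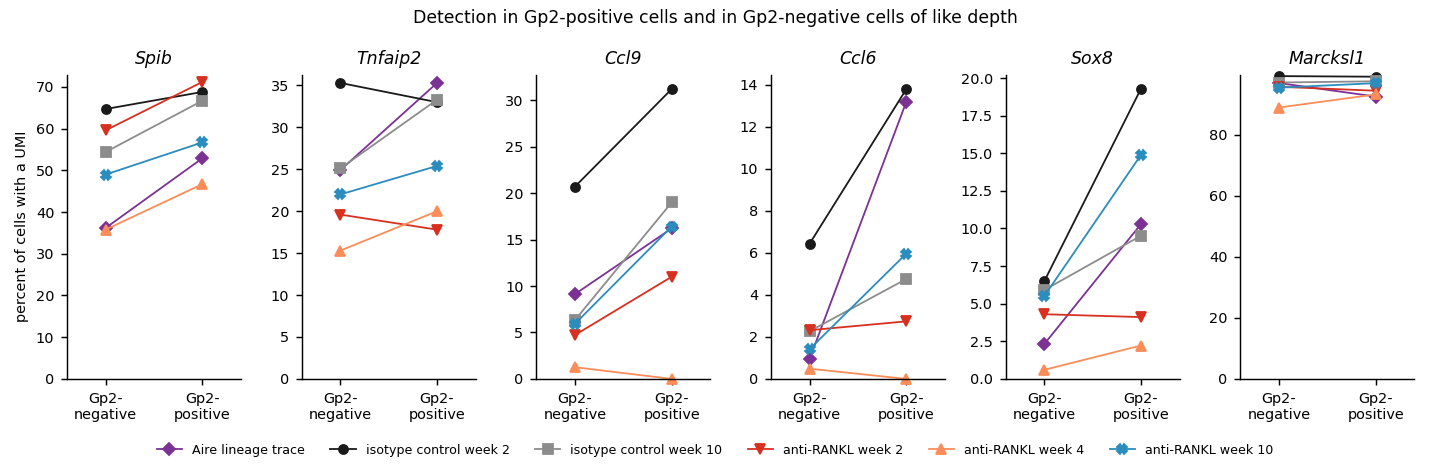
Percent of cells with a UMI of each gene (vertical axis) in Gp2-negative cells weighted to the depth of the Gp2-positive ones, and in Gp2-positive cells, with 1 line per library. The line rises in 6 of 6 libraries for Spib, and in 5 of 6 for Ccl9, Ccl6 and Sox8.

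*Gp2*-positive cells differed in what else they held. Of the 410, 23 also held *Ccl9* and *Ccl6*, and 119 of the others held at least 2 of the 7 tuft cell markers. Tuft cells are chemosensory epithelial cells that also occur in the thymic medulla. Of all cells without *Ptprc*, 1126 held 2 tuft markers, from 7.94% in the week 10 control to 27.7% at week 2 of anti-RANKL. Among the *Gp2*-positive cells with 2 tuft markers, 122 in all, 96 held *Spib* and 27 *Tnfaip2*, but 13 held *Ccl9* and 5 *Ccl6*. The 23 cells with both chemokines held 746 of the 2887 *Gp2* UMIs (25.8%), 14.4% of those of *Ccl9* and 35.6% of those of *Ccl6*. The other 268 cells, with neither trait, held 1558 of the *Gp2* UMIs. These are counts of cells with a UMI, 261 of the 410 by a single *Gp2* UMI, and free RNA could not be measured. At least 2 tuft markers occurred in 36.8% of *Gp2*-positive cells against 12.2% of all cells without *Ptprc* in the lineage tracing library. The controls gave 25.7% against 18.2% at week 2 and 16.7% against 7.94% at week 10. After anti-RANKL it was 43.8% against 27.7% at week 2, 11.1% against 8.34% at week 4 and 35.8% against 12.9% at week 10. Week 6 held 6 *Gp2*-positive cells, 1 of them with 2 tuft markers. These cells were not matched for depth.

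**Figure D4:**
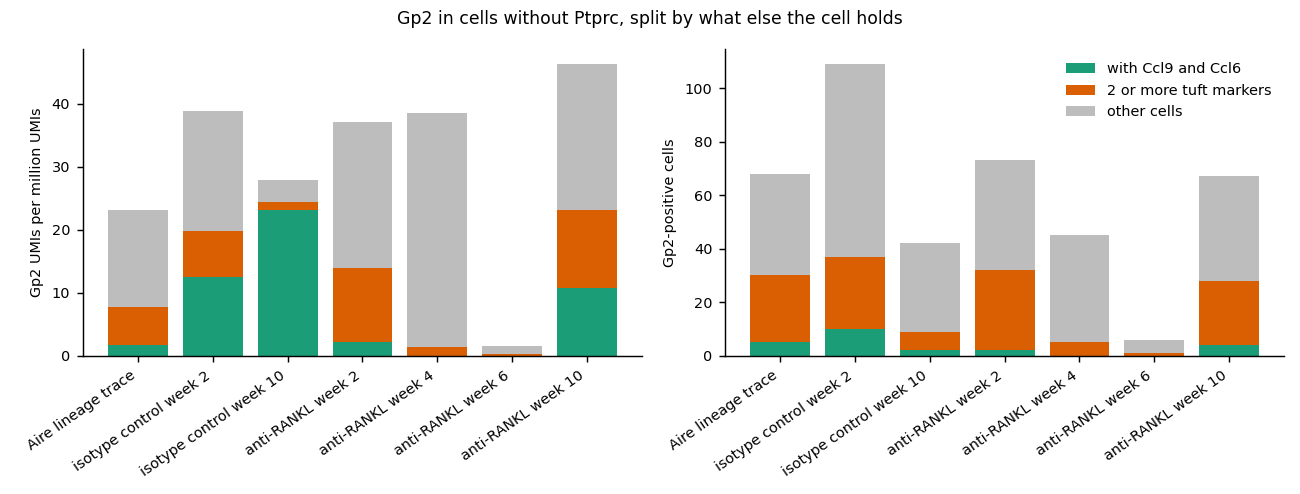
Gp2 CPM over the cells without Ptprc (left) and number of Gp2-positive cells (right) by library, stacked by whether the cell also held Ccl9 and Ccl6, held 2 or more tuft markers, or neither. The part with Ccl9 and Ccl6 is 23.1 of 27.8 CPM in the week 10 control and 0 at weeks 4 and 6 of anti-RANKL.

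The 23 cells came from 5 libraries, 10 from the week 2 control, 5 from the lineage tracing library, 4 from week 10 and 2 from week 2 of anti-RANKL, and 2 from the week 10 control. None was found in 1451 cells at week 4 or in 719 cells at week 6 of anti-RANKL. Taking 3 cells as the limit gives 0.207% and 0.417% for cells with a UMI of all 3 genes. The exact binomial 95% intervals, as used for the controls below, reach 0.254% and 0.512%. These are the shallowest libraries, and the limits do not cover cells that express the genes without a UMI. The week 10 control had 0.160% (exact binomial 95% interval 0.0194 to 0.578), so that at these numbers of cells the absence at weeks 4 and 6 cannot be told from that control, while the week 2 control had 0.886% (0.426 to 1.62). By class, 16 were Aire-zero, 5 Aire-low, 2 Aire-high and 0 Ccl21a-high. Like all cells compared here they had no *Ptprc* UMI by choice. All 23 had an *Epcam* UMI, 3 had 2 tuft markers, and none had more than 1 of the 7 myeloid markers.

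These cells were picked for 3 of the members, so the following values are a description. *Spib* was present in 21 of the 23, *Tnfaip2* in 20 and *Sox8* in 15, and 15 cells held all 6 members other than *Marcksl1*. A cell with all 6 holds the 3 genes used for picking, so it could only lie among the 23. Of the M cell genes that took no part in picking them, *Ccl20* had a UMI in 20 cells with a median of 47.0 and up to 330 UMIs in a cell, *Pglyrp1* in 20 with a median of 37.0 and up to 746, *Serpinb1a* in 21 with a median of 14.0 and up to 390, and *Fabp5* in 23 with a median of 53.0. *Relb* was detected in 20 cells, *Tnfrsf11b* in 19 and *Tnfrsf11a* in 16. *Atoh8* was in none of them and *Esrrg*, a nuclear receptor named for mature M cells, in 3. *Clu* was in 23, *Anxa5* and *Ctsh* in 22, *Prnp* in 19, *Nfkb2* in 12, *Aif1* in 11 and *Scg5* in 6. By library, *Gp2*-negative cells of like depth to *Gp2*-positive ones held *Fabp5* in 79.4% to 99.4% and *Relb* in 55.6% to 82.0%. They held *Serpinb1a* in 36.0% to 68.4%, *Pglyrp1* in 6.36% to 62.3%, *Ccl20* in 1.14% to 29.9% and *Atoh8* in 8.73% to 16.6%. *Fabp5*, *Relb* and *Atoh8* therefore do not set the 23 cells apart.

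The cell richest in *Gp2* was an Aire-zero cell of the week 10 control with 296 *Gp2*, 103 *Ccl6*, 34 *Ccl9*, 17 *Spib* and 16 *Tnfaip2* UMIs among 13339, together with 462 *Pglyrp1*, 265 *Serpinb1a* and 81 *Ccl20* UMIs. An Aire-zero cell of the week 10 anti-RANKL library held 115 *Gp2*, 29 *Ccl6*, 40 *Ccl9* and 330 *Ccl20* UMIs. In the lineage tracing library, an Aire-low cell held 11 *Gp2*, 19 *Ccl6*, 18 *Ccl9* and 390 *Serpinb1a* UMIs. Of the week 2 control, an Aire-zero cell with 96 *Gp2* UMIs held 63 *Ccl9*, 54 *Ccl6*, 329 *Ccl20* and 746 *Pglyrp1* UMIs. The cell with 189 *Gp2* UMIs at week 4 of anti-RANKL held neither *Ccl9* nor *Ccl6*.

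**Figure D5:**
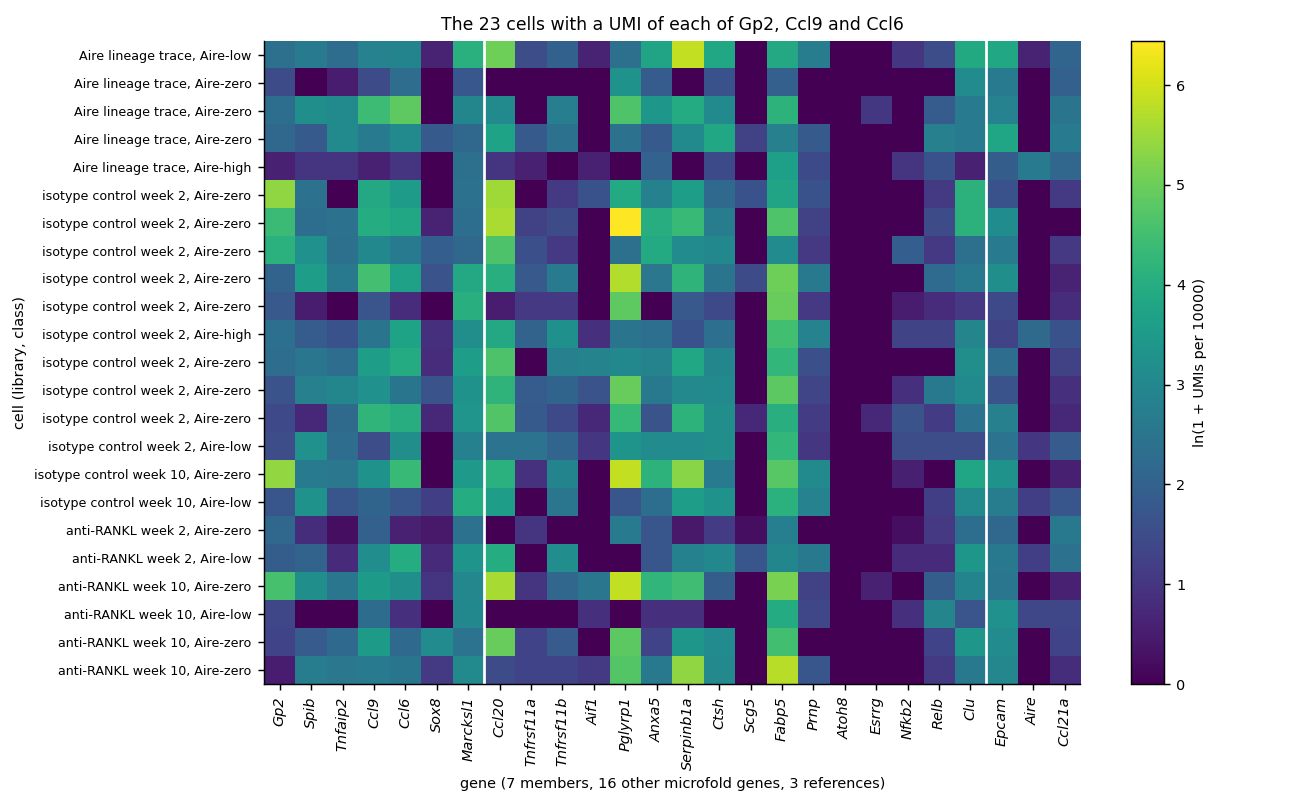
The 23 cells with Gp2, Ccl9 and Ccl6 (rows, by library and class) and 26 genes (columns, the 7 members, 16 other M cell genes, and Epcam, Aire and Ccl21a), coloured by ln(1 + UMIs per 10000). Ccl20, Pglyrp1, Serpinb1a and Fabp5 are bright in most rows, and Atoh8 is dark in all 23.

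Across single cells, the likeness of genes to the members was taken as Pearson's r of the deposited values within each library, averaged over libraries. Genes were ranked only where at least 1% of cells held them in each library used for that member, which leaves *Ccl6*, and for some members *Gp2*, *Ccl9* or *Sox8*, out of the ranking. The values are a description over cells that share a library and a range of depths. Among the ranked genes, *Ccl6* was closest to *Ccl9* (mean r = 0.54 over 5 libraries, 0.37 to 0.66) and then to *Ccl20* (0.39) among 13105 genes. *Gp2* was closest to *Lrrc26* (0.27 over 6 libraries), *Pglyrp1* (0.26), *Tspan1* (0.23), *Reg3g* (0.21) and *Tspan8* (0.20), and among the members its r was 0.23 with *Ccl6* and 0.20 with *Ccl9* (5 libraries each, not ranked) and 0.09 with *Spib*. For *Ccl9* the highest ranked genes were *Bcl2a1a* (0.37) and *Bcl2a1b* (0.33), copies of 1 gene family whose reads may be shared, below the 0.54 of the unranked *Ccl6*. *Spib* was closest to *Snrnp25* and *Il4i1* (0.30 each over 7 libraries), and *Marcksl1* to *Ubd* (0.31) and *Srgn* (0.30). For *Tnfaip2* the highest ranked were *Nfkbia* and *Il4i1* (0.20 each), below the unranked *Ccl6* (0.24 over 5 libraries). For *Sox8* they were *Spib* (0.17) and *Pglyrp1* (0.16), below the unranked *Ccl6* (0.26) and *Ccl9* (0.22). In counts this sparse a low r is no finding.

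In the lineage tracing library, ZsGreen was set beside *Gp2* in cells without an *Aire* UMI. It had a UMI in 29 of 43 *Gp2*-positive cells, 67.4% (exact binomial 95% interval 51.5 to 80.9), with a median depth of 8975 UMIs, and in 384 of 988 *Gp2*-negative cells, 38.9% (35.8 to 42.0), at 8327 UMIs. With every cell thinned to 2000 UMIs the shares were 53.8% (33.4 to 73.4) and 16.7% (14.6 to 19.0). Cells with a *Ptprc* UMI had the reporter in 63.8% (51.3 to 75.0) at a median of 12350 UMIs. They give no background level, since 33 of these 69 cells held at least 2 tuft markers and together they held the 5 TEC markers at 4632 CPM. No cell type that should lack ZsGreen was set apart, so free RNA was not measured here. The shares are given as values and not read as a label of these cells. Within the Aire-zero class the shares were 80.0% (59.3 to 93.2) of 25 *Gp2*-positive and 51.2% (44.2 to 58.2) of 207 *Gp2*-negative cells, and within Ccl21a-high cells without *Aire* 9 of 18 (26.0% to 74.0%) and 35.6% (32.2 to 39.1) of 781. For the other members the share in positive cells ran from 40.5% for *Marcksl1* to 9 of 15 cells for *Sox8*. This is 1 library, so there is no test across mice.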

How the data were processed

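Single-cell RNA was measured in 7 droplet libraries, each of EpCAM+ CD45- cells from 3 pooled mouse thymi. Per the submitters' processing notes and the study's methods, reads were processed with Cell Ranger 2.2.0 against mm10, with the ZsGreen transcript added for lineage tracing, and cells were filtered in Seurat 2.3.4. The authors deposited, for each cell and gene, a natural log, ln(1 + UMIs per 10000). The methods state a scale factor of 1000, but each cell sums to 10000, and whole UMIs were recovered from 100% of values within 0.001. No step against doublets is named. The joined tables (10760 cell columns) were not used.

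The members and lists were chosen with earlier results of these data known. UMIs were summed per library and cell class (at least 10 cells) and compared with limma 3.58.1 in R 4.3.3 (trend, library as block) on log2(UMIs per 1000000, CPM, + 10), for genes with a mean of at least 5 CPM, with Benjamini-Hochberg adjustment at 0.05. A fold on that scale understates the change of low genes. Libraries of several treatments and ages served as the 7 replicates. With the library as a block, the p-values measure how class differences vary between pools, with a residual spread shared by all classes. The other steps used scipy 1.17.1 and pandas 2.3.3 under Python 3.11.15. Time points were compared without a test, and a member was counted when at least 2-fold below or above both controls, a count of 0 standing at 3 UMIs, among genes of at least 5 CPM in either control. Joint detection used depth quintiles within libraries and an exact sign-flip permutation test. Its p-values were to be adjusted over the 6 members and were adjusted over all genes instead, since the members had been chosen with results known. The steps were tested on simulated data. Named genes are the 7 members, the 16 other M cell genes, and those with the highest mean r (5 for *Gp2*, 2 for each other member). Shares carry exact binomial (Clopper-Pearson) 95% intervals, which, as the Poisson ones, cover counting error only. A wider immune gate, among the alternatives, left out 3703 cells with a UMI of *Ptprc* or any of 12 other T, B, myeloid or dendritic cell genes. The alternatives changed the pseudocount, filters, cutoffs, gates, depth and libraries.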

Additional observations from a re-analysis of the deposited data

Results flagged for a closer look

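*Gp2* was also found in cells outside the comparisons, those with a *Ptprc* UMI, in 4 of 7 libraries at a level above that of the cells without *Ptprc* of the same library. It was at 116 UMIs per 1000000 (CPM) in the lineage tracing library, 250 in the week 2 control, 153 at week 2 and 361 at week 10 of anti-RANKL, with exact Poisson intervals that lay above those of the cells without *Ptprc* in these 4 libraries. At week 2 of anti-RANKL, 48 of the 70 UMIs (68.6%) came from 1 of 38 cells, so the separation there rests largely on it. In the others of these libraries the richest cell gave 32.7% to 37.6%. Of the 233 cells with *Ptprc*, 40 held *Gp2* (466 UMIs). Among them, 105 cells had at least 2 tuft markers, and these held 34 of the 40 *Gp2*-positive cells and 454 of the 466 UMIs. In the other 3 libraries it was not above. The week 10 control had 3 UMIs, 7.95 CPM (1.64 to 23.2) against 27.8 without *Ptprc*, below it beyond both intervals, week 4 of anti-RANKL had 2 UMIs, 15.9 CPM (1.92 to 57.3) against 38.6, and week 6 had 0.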

How the results depend on the processing

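Of 734 values recomputed under another setting, 676 kept their direction and their side of the threshold, or their count within 1.5 times. Between Aire-high and Aire-zero cells, 1 member instead of 2 was called higher without the 5% of cells with the most UMIs (*Spib* lost). Between Aire-low and Aire-zero cells, 2 instead of 1 were called higher when the Aire classes kept the Ccl21a-high cells, at an Aire cutoff of 2, with the wider immune gate and on the mean of the deposited values, and 0 and 1 instead of 2 were called lower with the wider immune gate and on that mean. With libraries left out, the higher count there ranged from 1 to 2, the latter without week 10 of anti-RANKL. Signs turned only for differences that were not called. *Tnfaip2* in Aire-high against Aire-zero cells became -0.08 at an Aire cutoff of 2 and -0.02 with classes of at least 30 cells, and ranged from -0.15 to 0.26 with a library left out (-0.15 and -0.03 without weeks 4 and 6 of anti-RANKL). In Aire-low against Aire-zero cells it became 0.18 with Ccl21a-high cells kept and 0.06 on the mean of the deposited values, and ranged from -0.17 to 0.04 with a library left out (0.01 without week 10 of anti-RANKL, 0.04 without the week 2 control). There *Ccl9* became 0.02 with Ccl21a-high cells kept and 0.02 on that mean. In Aire-high against Aire-low cells *Tnfaip2* became -0.08 at a cutoff of 2, *Ccl6* 0.03 at a cutoff of 1 and *Marcksl1* 0.01 with Ccl21a-high cells kept and 0.16 with the wider gate. *Gp2* in Aire-high against Ccl21a-high cells became 0.01 on that mean and ranged from -0.56 to 0.09, the latter without week 10 of anti-RANKL. Classes from thinned UMIs left no Aire-low class, since 1 *Aire* UMI of 2000 lies above the cutoff. The cause was not tested.

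In the time course, the members below both controls were 2 at week 2 and 5 at week 4 with a 1.5-fold limit, 1 at week 4 with a 3-fold limit, and 5 at week 4 without the 5% of cells with the most UMIs (with *Gp2* and *Marcksl1* added). Without the week 10 control, 2 members (*Ccl9* and *Ccl6*) lay below at week 2 and 2 at week 10, and without the week 2 control 0 did at either, so these counts rest on the spread between the controls. Beside *Gp2*, the members higher in each library were 2 without weighting for depth, 0 with the wider gate and, chosen after seeing the data, 2 without the 5 cells richest in *Gp2*. With libraries left out the count ranged from 1 to 3, with 2 without week 2 and 3 without week 4 of anti-RANKL. *Marcksl1* turned to -5.57 percentage points with thinned UMIs, and ranged from -0.755 to 0.967 with a library left out (-0.755 and -0.211 without weeks 4 and 10 of anti-RANKL). The share of *Gp2*-positive cells with ZsGreen stayed within its interval, while that of *Gp2*-negative cells went from 38.9% to 16.7% with thinned UMIs. No paired analysis was possible because each anti-RANKL group is 1 library, also at weeks 2 and 10, which have a control of the same age. The class test has the library as a block. *Gp2*, with 410 cells, and *Sox8*, with 428 UMIs, rest on low counts. The libraries of weeks 4 and 6 are the shallowest, and the part of depth in their values was not tested.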
